A study of Mus musculus with 9 samples.

Results

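The nuclear-encoded subunits of the mitochondrial respiratory chain and ATP synthase were followed in ovaries lacking the liver X receptors. Rows of the deposited expression table were taken by gene symbol, with the symbol families Nduf (followed by a, b, c, s or v and a number), Sdha to Sdhd, Uqcr, Cyc1, Cox4 to Cox8 and Atp5, and without rows whose symbol holds "-ps", a mark used for pseudogenes. Among the rows so left out, the annotation classes Ndufb1-ps as a long non-coding RNA gene and not as a pseudogene. The rule used no expression value. It gave 90 of 54838 rows, which carry 89 distinct symbols because Atp5o has a second row. Complex I had 40 rows, complex II 4, complex III 9, complex IV 19 and complex V, the ATP synthase, 18. The annotation classes 82 of the 86 tested rows as protein-coding and 4 (Ndufa11b, Ndufb4c, Ndufs6b and Cox6c2) as processed pseudogenes, which the rule keeps because their symbols do not hold the mark.

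The respiratory chain lies in the inner mitochondrial membrane. Complexes I and II pass electrons from NADH and succinate to ubiquinone, complex III passes them on to cytochrome c, complex IV gives them to oxygen, and complex V uses the proton gradient to make ATP. Most subunits are encoded in the nucleus and imported, while a few core subunits of complexes I, III, IV and V are encoded by mitochondrial DNA. In the ovary, granulosa and luteal cells make steroids in part inside mitochondria, where the cholesterol side chain is cut.

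All 9 libraries came from ovaries of adult mice treated with PMSG, a gonadotropin under which follicles grow, and taken 40 h later. The 3 groups were mice without both liver X receptors (LXR), which are nuclear receptors that sense oxysterols (DKO, labelled DKO LXR), the same double knockout with a transgene labelled TG-AMH-LXRb (DKO_TG), and wild type (WT), each with 3 libraries of total RNA. DKO and DKO_TG thus share the receptor loss. The promoter of the transgene, the cells in which it is active, the knockout alleles and the strain are not stated in the labels. Nothing in the labels ties each library to an animal of its own, so the spread behind the p-values may be partly technical.

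Values are RPKM, reads per kilobase of exon scaled by an effective library size. Multiplying back gave totals of 46.1 to 59.4 M reads in DKO, 40.1 to 47.6 M in DKO_TG and 48.6 to 57.7 M in WT. The library size behind the RPKM was 1.04 to 1.11 times that total in DKO, 1.03 to 1.06 times in DKO_TG and 0.793 to 0.920 times in WT, so the deposited values carry a scaling that differs between WT and the others. The targeted receptors were low in both knockout groups. Nr1h3 (LXRa) lay at 0.590, 1.11 and 0.717 RPKM in DKO and 0.538, 0.824 and 0.647 RPKM in DKO_TG, against 5.47, 4.12 and 4.45 RPKM in WT. Nr1h2 (LXRb) lay at 5.79 to 7.79 RPKM in DKO, 5.14 to 5.96 RPKM in DKO_TG and 15.2 to 22.5 RPKM in WT. The WT libraries stood apart from the others in RNAs that stay in the nucleus. Malat1 was at 177 to 213 RPKM in DKO and 246 to 279 RPKM in DKO_TG, against 1.67 to 11.1 RPKM in WT, and Neat1 was at 41.2 to 65.7 RPKM in DKO and 49.3 to 67.2 RPKM in DKO_TG, against 0.226 to 0.757 RPKM in WT. Genotype and a difference in how the WT libraries were made cannot be told apart with these samples, and this touches each comparison with WT below.

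Promoters of respiratory chain genes are known for sites of NRF1 and of ETS factors such as GABP. Of the 85 protein-coding rows' symbols, 68 had a window in the RefSeq promoter table (GRCm38.p6), of which the 250 bases before the start were searched on both strands. The NRF1 letters (GCGC, A, any base, GCGC) stood in 13 of the 68 windows (19.1%), against 5.84% of 17491 protein-coding genes. The ETS letters CCGGAAG stood in 12 (17.6%), against 10.2%. The letters CCAAT stood in 44.1% against 39.5%, TATAAA in 8.82% against 13.7%, and AAGATGG, the YY1 letters, in 1 window (1.47%) against 4.77%. One window per complex that holds such letters is printed, with Atp5s, the member that ran against the others in the values that follow and whose window holds neither. Capitals mark NRF1 letters and ETS letters, here in either orientation (the ETS letters reversed read CTTCCGG), and coordinates are GRCm38.
Ndufa8 (chr2:36049339-36049588, minus strand): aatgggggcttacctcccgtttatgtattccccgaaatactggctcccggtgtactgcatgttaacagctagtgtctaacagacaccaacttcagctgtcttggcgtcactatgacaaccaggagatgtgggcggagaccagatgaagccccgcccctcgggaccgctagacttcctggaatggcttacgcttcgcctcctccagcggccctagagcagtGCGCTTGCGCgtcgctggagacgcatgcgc
Sdhd (chr9:50603850-50604099, minus strand): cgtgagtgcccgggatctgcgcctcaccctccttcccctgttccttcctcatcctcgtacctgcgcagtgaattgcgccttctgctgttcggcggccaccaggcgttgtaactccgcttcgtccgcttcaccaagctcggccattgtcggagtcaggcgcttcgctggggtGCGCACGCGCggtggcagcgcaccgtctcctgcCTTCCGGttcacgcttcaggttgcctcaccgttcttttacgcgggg
Uqcrh (chr4:116075071-116075320, minus strand): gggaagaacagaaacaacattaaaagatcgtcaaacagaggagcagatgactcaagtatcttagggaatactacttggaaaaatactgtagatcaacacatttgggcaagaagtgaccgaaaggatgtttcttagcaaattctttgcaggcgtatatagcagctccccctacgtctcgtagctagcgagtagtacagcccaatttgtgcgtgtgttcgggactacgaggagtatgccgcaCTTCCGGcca
Cox6a1 (chr5:115348959-115349208, minus strand): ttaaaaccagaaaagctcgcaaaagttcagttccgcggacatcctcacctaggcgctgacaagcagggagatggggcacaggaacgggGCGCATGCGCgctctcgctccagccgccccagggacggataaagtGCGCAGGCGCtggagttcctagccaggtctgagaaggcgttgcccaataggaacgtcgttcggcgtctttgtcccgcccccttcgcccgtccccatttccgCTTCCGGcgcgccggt
Atp5h (chr11:115419920-115420169, minus strand): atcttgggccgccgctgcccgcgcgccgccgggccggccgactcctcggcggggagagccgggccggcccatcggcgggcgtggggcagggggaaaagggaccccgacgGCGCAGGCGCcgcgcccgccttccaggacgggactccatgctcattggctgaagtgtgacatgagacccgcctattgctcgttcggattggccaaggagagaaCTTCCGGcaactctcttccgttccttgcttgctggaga
Atp5s (chr12:69724695-69724944, plus strand): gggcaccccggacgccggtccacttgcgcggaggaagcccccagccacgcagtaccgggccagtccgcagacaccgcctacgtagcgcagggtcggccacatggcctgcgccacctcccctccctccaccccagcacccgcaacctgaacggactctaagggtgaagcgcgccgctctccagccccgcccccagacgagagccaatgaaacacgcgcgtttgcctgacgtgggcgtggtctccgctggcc
Ndufa8 has 1 NRF1 match and no ETS match in this window, and Uqcrh 1 ETS match and no NRF1 match. Sdhd and Atp5h each hold 1 of both, and Cox6a1 holds 2 NRF1 matches and 1 ETS match. A match of letters describes the sequence, and no binding was measured.

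The RNA of the chain was lower in both knockout groups than in WT. Summed over the 90 rows, it came to 4414, 6537 and 5327 RPKM in DKO and 5868, 6435 and 5795 RPKM in DKO_TG, against 11177, 8146 and 7919 RPKM in WT. All 6 knockout libraries lay below the 3 WT libraries, and DKO and DKO_TG overlapped. The same sums were a like part of all RPKM: 1.03%, 1.2% and 1.11% in DKO and 1.22%, 1.29% and 1.18% in DKO_TG, against 1.36%, 1.25% and 1.19% in WT. As shares of all RPKM, DKO_TG overlapped WT and DKO replicate 2 lay above WT replicate 3. In bulk ovaries, fewer cells of a type and less RNA per cell cannot be told apart. A single library at each end set part of the span: WT replicate 1 had the highest value of the 9 libraries for 82 of the 86 tested rows, and DKO replicate 1 the lowest for 62.

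**Figure D1:**
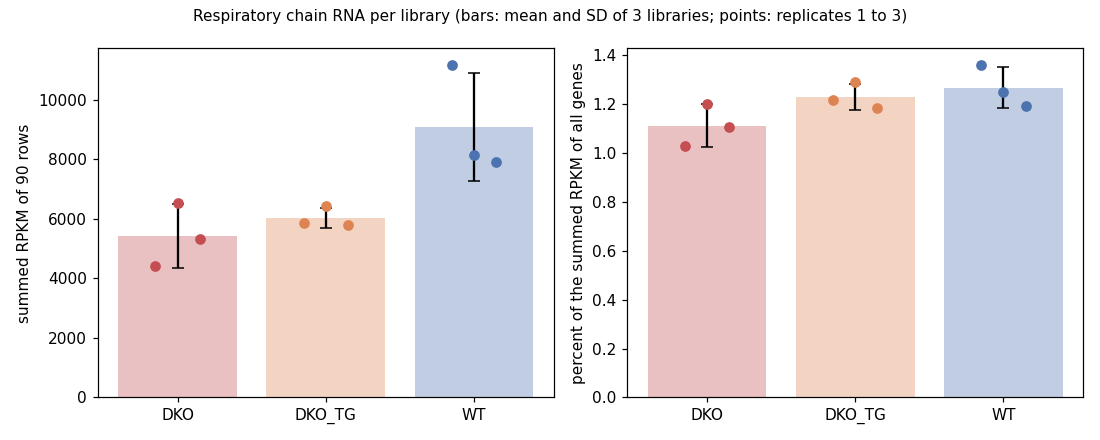
Summed RPKM of the 90 respiratory chain rows (left) and the same sum as a percentage of the RPKM of all genes (right), with bars for the mean, error bars for the SD and points for replicates 1 to 3 of DKO, DKO_TG and WT. The sums of all knockout libraries lie below those of WT, between 4414 and 6537 RPKM against 7919 to 11177 RPKM, while the percentages of DKO_TG and WT overlap.

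**Figure D2:**
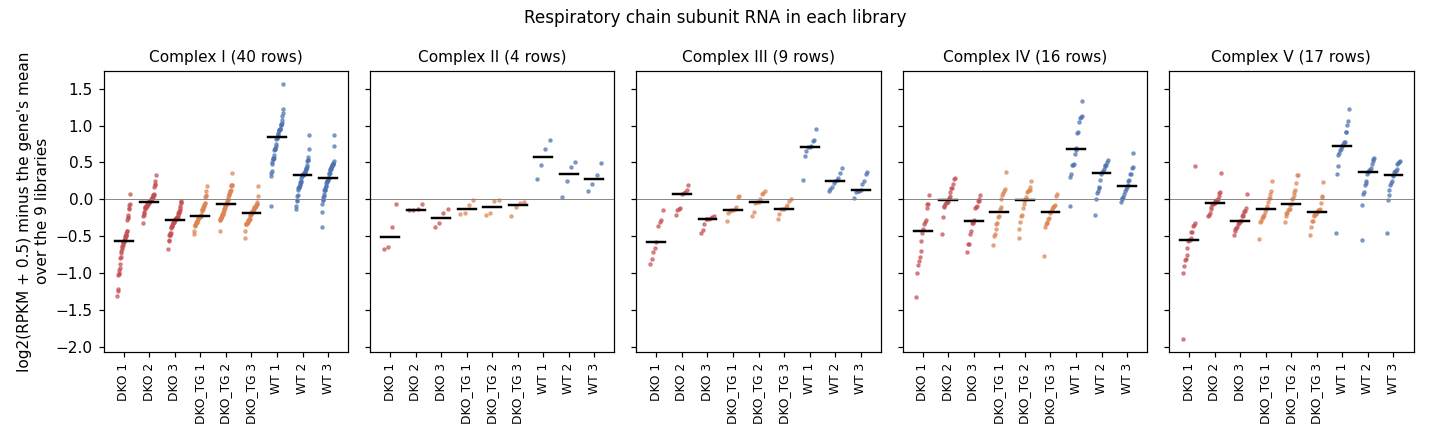
Each point is 1 tested gene in 1 library, as log2(RPKM + 0.5) minus the gene's mean over the 9 libraries, and black lines are medians per complex. In each complex the median of WT replicate 1 is the highest and that of DKO replicate 1 the lowest.

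Genes with at least 0.5 RPKM in at least 3 libraries were tested with limma on log2(RPKM + 0.5), and called at an adjusted p under 0.05 over 18889 genes. Of the 86 tested respiratory chain rows, 66 were called lower in DKO than in WT and 1 higher, against 25.9% of all genes called lower and 30.8% called higher. Their median log2 fold change was -0.74, where the median of all genes was 0.02. In DKO_TG, 48 of the 86 were called lower than in WT and 2 higher, against 22.3% of all genes lower and 29.1% higher, with a median of -0.57. Both comparisons use the same WT libraries. The lower calls shared 47 genes, which is 47 of the 66 in DKO and 47 of the 48 in DKO_TG, and Cox4i2 was called in DKO_TG alone of the pair. For 70 rows all DKO libraries lay below all WT libraries (28.6% of all genes did), and for 67 rows all DKO_TG libraries did (30.2%). The reverse held for 1 row in DKO (32.6% of all genes) and 2 in DKO_TG (35.6%). The median stayed below 0 under each scaling tried, and the number of calls varied with the scaling, from 26 to 76 in DKO and from 21 to 61 in DKO_TG. Without WT replicate 1 and DKO replicate 1 together, a setting chosen after seeing the data, 47 rows were lower in DKO and 1 higher, with a median of -0.46. Of all 18889 genes, 3794 were lower and 5001 higher in that fit. By complex, I to V, the same fit left 24, 3, 4, 5 and 11 lower calls in DKO.

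**Figure D3:**
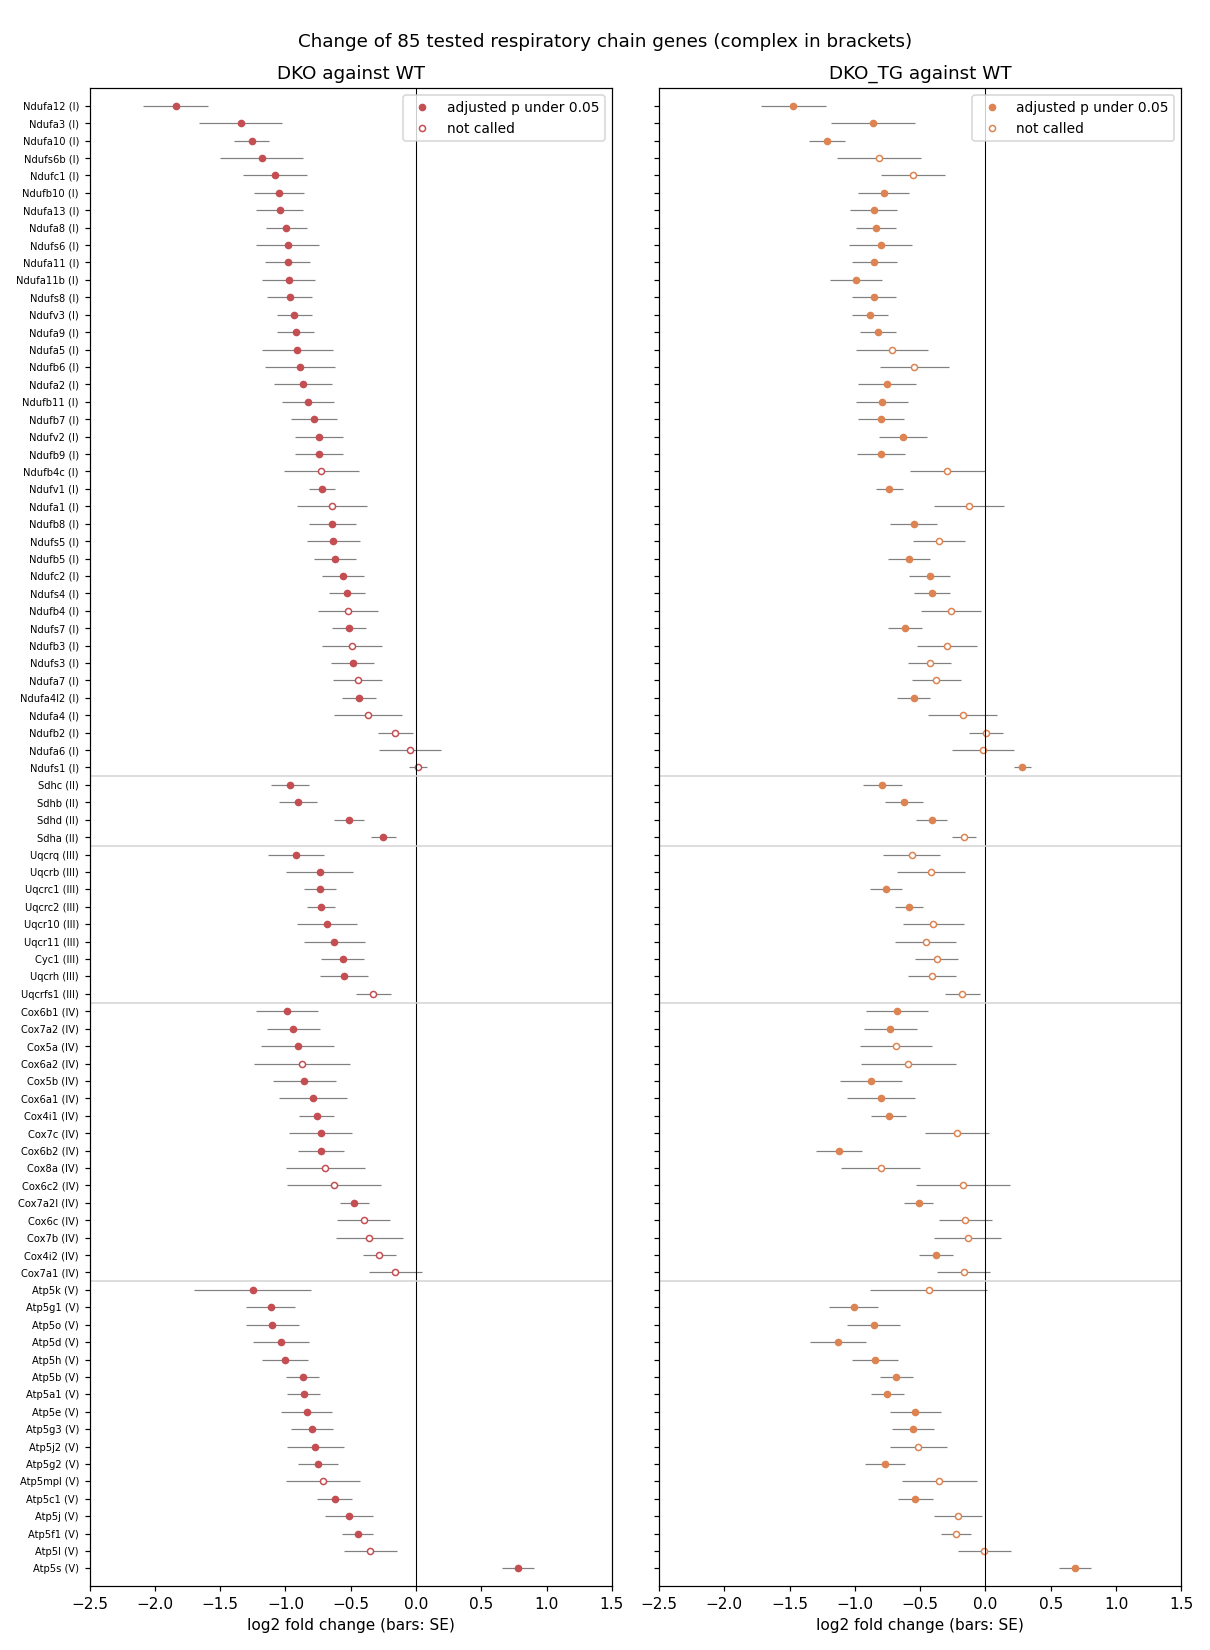
Log2 fold change against WT of 85 tested respiratory chain genes in DKO (left) and DKO_TG (right), grouped by complex, with bars for the SE and filled points for an adjusted p under 0.05. Most points lie left of 0 in both. Atp5s and Ndufs1 lie right of 0 in both, Ndufs1 only just in DKO (0.016, not called), and Ndufb2 lies at 0.003 in DKO_TG (not called). A length and GC correction puts Ndufs1 below 0 in both.

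Complex I takes electrons from NADH through flavin and iron-sulfur clusters held by 7 nuclear-encoded core subunits. Of its 40 rows, 31 were lower in DKO and 25 in DKO_TG, with Ndufs1 higher in DKO_TG. Ndufv1, which binds NADH and the flavin, was at 41.6, 44.3 and 41.1 RPKM in DKO and 41.2, 40.8 and 43.4 RPKM in DKO_TG, against 80.0, 62.9 and 68.3 RPKM in WT. Its log2 fold change was -0.72 ± 0.10 (SE) in DKO (adjusted p = 5.3e-04) and -0.74 ± 0.10 in DKO_TG (adjusted p = 5.0e-04), and no knockout library reached a WT library. Ndufs8, which carries iron-sulfur clusters on the arm towards the membrane, was at 66.2, 80.3 and 71.8 RPKM in DKO and 79.4, 82.7 and 74.1 RPKM in DKO_TG, against 189, 129 and 119 RPKM in WT. The fall was 0.97 ± 0.17 in DKO and 0.85 ± 0.17 in DKO_TG on the log2 scale. Ndufv2, Ndufs3 and Ndufs7 were lower in DKO by 0.74, 0.49 and 0.52 on the log2 scale, and in DKO_TG Ndufv2 and Ndufs7 were called while Ndufs3 was not (-0.43, adjusted p = 0.059). Under rescaling to TPM Ndufs3 and Ndufs7 came out slightly above 0 in DKO.

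Ndufs1, the largest core subunit (chr1:63143596-63176833, GRCm38), was not called in DKO on the deposited scale. It was at 12, 11.6 and 12.1 RPKM in DKO and 14.3, 14.6 and 14.3 RPKM in DKO_TG, against 11.8, 11.5 and 12 RPKM in WT. DKO and WT overlapped (log2 fold change 0.02 ± 0.07, 95% interval -0.14 to 0.17), and the 3 DKO_TG libraries lay above all others. The log2 fold change in DKO_TG was 0.28 ± 0.07 against WT (adjusted p = 0.0076), and a correction for exon length and GC content turned it to -0.10. With that correction Ndufs1 was called lower in DKO (-0.29, adjusted p = 0.0067), as many other members were. Its exons span 8086 bases in the annotation, the most of any member, and 6.0% of them are shared with a non-coding gene on the opposite strand. Whether reads were counted by strand is not stated in the labels.

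Accessory subunits of complex I surround the core and are needed for its assembly or stability. Of 29 protein-coding ones, counted without Ndufa4l2, 22 were lower in DKO and 18 in DKO_TG. Ndufa12 had the greatest fall of all members in DKO (chr10:94198720-94221443). It was at 12.1, 22.9 and 17.9 RPKM in DKO and 22.3, 24.8 and 20 RPKM in DKO_TG, against 86.7, 53.3 and 53.0 RPKM in WT. That is 27.9% of the WT level in DKO (adjusted p = 4.3e-04) and 36.1% in DKO_TG (adjusted p = 0.0015), with a wide gap between WT and both knockout groups, which overlapped each other. Ndufa10 was even within groups, at 18.8, 22.9 and 18.0 RPKM in DKO and 19.4, 22.4 and 19.8 RPKM in DKO_TG, against 57.2, 43.5 and 44.7 RPKM in WT. Its log2 fold changes of -1.26 ± 0.14 in DKO and -1.21 ± 0.14 in DKO_TG had the smallest adjusted p of any member, 1.2e-04 in DKO and 1.6e-04 in DKO_TG. Ndufa3, Ndufa13 (also known as GRIM-19), Ndufb10 and Ndufc1 were lower in DKO by 1.34, 1.04, 1.05 and 1.08 on the log2 scale. Ndufa13 shares 30.0% of its exon bases with Tssk6 and Ndufb6 39.0% with Smim27, both on the opposite strand. Ndufb11 had the highest mean of complex I, at 79.9, 121 and 99.1 RPKM in DKO and 94.4, 110 and 99.1 RPKM in DKO_TG, against 232, 152 and 152 RPKM in WT.

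Some accessory rows did not pass the test. Ndufa6 was at 45.4, 67.6 and 48.2 RPKM in DKO and 48.8, 61.0 and 52.7 RPKM in DKO_TG, against 78.5, 50.4 and 41.3 RPKM in WT, so that WT spanned both other groups. Ndufb2 had the lowest level of complex I, at 3.28 to 3.88 RPKM in DKO, 4.09 to 4.15 RPKM in DKO_TG and 3.45 to 5.18 RPKM in WT, over 5628 annotated exon bases. Ndufa1, Ndufa7, Ndufb3 and Ndufb4 had log2 fold changes of -0.64, -0.45, -0.49 and -0.52 in DKO with adjusted p between 0.068 and 0.093. In each, DKO replicate 1 had the lowest value of the 9 libraries.

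Complex II, which also serves as succinate dehydrogenase in the tricarboxylic acid cycle, has all its subunits encoded in the nucleus, and all 4 were lower in DKO. Sdhb, the iron-sulfur subunit, was at 32.6, 46.3 and 39.4 RPKM in DKO and 48.5, 44.1 and 50.1 RPKM in DKO_TG, against 83.0, 73.5 and 64.9 RPKM in WT. Its log2 fold change was -0.90 ± 0.14 in DKO (adjusted p = 9.4e-04) and -0.62 ± 0.14 in DKO_TG (adjusted p = 0.0066). Sdhc, a membrane anchor, was at 17.2, 25.2 and 22.2 RPKM in DKO and 24.2, 24.3 and 23.7 RPKM in DKO_TG, against 49.2, 38.0 and 39.5 RPKM in WT. The other anchor, Sdhd, fell by 0.51 ± 0.12 in DKO and 0.41 ± 0.12 in DKO_TG on the log2 scale. Sdha, the flavin subunit that oxidises succinate, differed least, at 75.2, 71.7 and 72.2 RPKM in DKO and 78.0, 78.2 and 76.5 RPKM in DKO_TG, against 96.1, 80.4 and 85.0 RPKM in WT. It was called in DKO (-0.25 ± 0.09, adjusted p = 0.045) and not in DKO_TG (-0.16 ± 0.09, adjusted p = 0.17), and the direction in DKO turned with the scale. Sdha was called higher in DKO under TPM rescaling (0.30, adjusted p = 0.035) and quantile normalization (0.33, adjusted p = 0.032), and lay at 0.066, not called, under scaling to the plain total of reads. Sdhd lay above 0 in both groups under TPM and quantile.

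Complex III moves electrons from ubiquinol to cytochrome c. In DKO 8 of its 9 rows were lower, and in DKO_TG 2 were. The core proteins Uqcrc1 and Uqcrc2, which face the matrix, were the rows called in both. Uqcrc1 was at 31.3, 34.5 and 31.6 RPKM in DKO and 31.1, 32.6 and 31.8 RPKM in DKO_TG, against 66.8, 49.2 and 48.9 RPKM in WT. Uqcrc2 was at 50.1, 53.4 and 49.0 RPKM in DKO and 55.9, 55.2 and 56.7 RPKM in DKO_TG, against 98.3, 75.7 and 80.6 RPKM in WT, and it shares 19.7% of its exon bases with Pdzd9 on the opposite strand. Both sets of knockout libraries lay well below WT for either gene. Cyc1, the cytochrome c1 subunit, was at 49.4, 58.8 and 52.7 RPKM in DKO and 57.7, 62.0 and 63.7 RPKM in DKO_TG, against 104, 74.2 and 64.5 RPKM in WT. It was called in DKO (-0.56 ± 0.17, adjusted p = 0.018) and not in DKO_TG (-0.37 ± 0.17, adjusted p = 0.088). Uqcrfs1, the Rieske iron-sulfur protein, was the row called in neither, with -0.33 ± 0.14 in DKO (adjusted p = 0.066). The small subunits Uqcrb, Uqcrq, Uqcrh, Uqcr10 and Uqcr11 were lower in DKO by 0.55 to 0.92 on the log2 scale, with Uqcrh above 0 under quantile normalization. In DKO_TG these 5 had log2 fold changes of -0.57 to -0.40 and did not pass. For all 9 rows the 3 DKO_TG libraries lay below the 3 WT libraries on the deposited scale, as they did for 30.2% of all genes. The median change of the 9 rows in DKO_TG was above 0 under TPM (0.11) and quantile normalization (0.13).

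Complex IV, cytochrome c oxidase, holds nuclear-encoded subunits around a core made by mitochondrial DNA, and several have a second gene used in particular tissues. Of 16 tested rows, 9 were lower in DKO and 8 in DKO_TG. Cox4i1, the general form of subunit IV (chr8:120668222-120674207), was at 165, 213 and 175 RPKM in DKO and 176, 189 and 193 RPKM in DKO_TG, against 350, 288 and 298 RPKM in WT. The log2 fold changes of -0.76 ± 0.13 in DKO (adjusted p = 0.0016) and -0.74 ± 0.13 in DKO_TG (adjusted p = 0.0020) left no overlap with WT. Cox5b was at 42.1, 51.9 and 38.1 RPKM in DKO and 37.5, 50.6 and 42.1 RPKM in DKO_TG, against 115, 75.7 and 57.6 RPKM in WT, and WT replicate 1 was 2.00 times WT replicate 3. Cox5a was called in DKO (-0.91 ± 0.28, adjusted p = 0.022) and not in DKO_TG (-0.69 ± 0.28, adjusted p = 0.068). Cox6a1, Cox6b1 and Cox7a2, the general forms of their subunits, fell by 0.79, 0.99 and 0.94 in DKO and by 0.80, 0.68 and 0.73 in DKO_TG on the log2 scale. Cox7c was called in DKO (-0.73 ± 0.24) and had -0.22 ± 0.24 in DKO_TG. Cox7b, Cox6c and Cox8a were not called in either comparison, with log2 fold changes in DKO of -0.36, -0.40 and -0.69.

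The tissue-restricted forms were minor at the RNA level. Cox4i2, the form known from lung, was at 11.3, 9.05 and 10.8 RPKM in DKO and 10.8, 8.04 and 10.2 RPKM in DKO_TG, against 13.5, 11.7 and 12.9 RPKM in WT. Of Cox4i1 plus Cox4i2 it made up 5.43% ± 1.2 in DKO, 4.97% ± 0.86 in DKO_TG and 3.92% ± 0.22 in WT (SD, n = 3 each). Cox6b2, known from testis, was at 3.58, 5.70 and 5.01 RPKM in DKO and 4.27, 3.39 and 2.79 RPKM in DKO_TG, against 8.53, 7.61 and 8.16 RPKM in WT. Its log2 fold change of -1.12 ± 0.18 in DKO_TG (adjusted p = 9.4e-04) was greater than that of Cox6b1, -0.68 ± 0.24, and a difference between these was not tested beyond the shares. Cox7a2l, which joins complexes III and IV in supercomplexes, fell by 0.47 ± 0.11 in DKO and 0.51 ± 0.11 in DKO_TG, and lay above 0 in both under TPM and quantile scaling. It made up 52.1% ± 3.99 of the Cox7a RNA in DKO, 48.0% ± 2.84 in DKO_TG and 44.7% ± 2.74 in WT, where Cox7a2 was the more abundant form. Ndufa4 and Ndufa4l2, named for complex I although Ndufa4 has since been assigned to complex IV, differed: Ndufa4 was not called in DKO (-0.37 ± 0.26), and Ndufa4l2, known to be induced by low oxygen, fell by 0.44 ± 0.13 in DKO and 0.55 ± 0.13 in DKO_TG, but not under TPM rescaling in DKO. The muscle forms Cox6a2 and Cox7a1 were at 0.690 to 1.12 and 5.37 to 8.43 RPKM in DKO, 0.856 to 1.78 and 5.29 to 7.48 RPKM in DKO_TG and 1.02 to 3.92 and 6.41 to 9.53 RPKM in WT, neither called. Over 27 exact two-sided permutation tests on such shares, where 3 against 3 libraries cannot go below p = 0.1, the lowest adjusted p was 0.36.

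**Figure D4:**
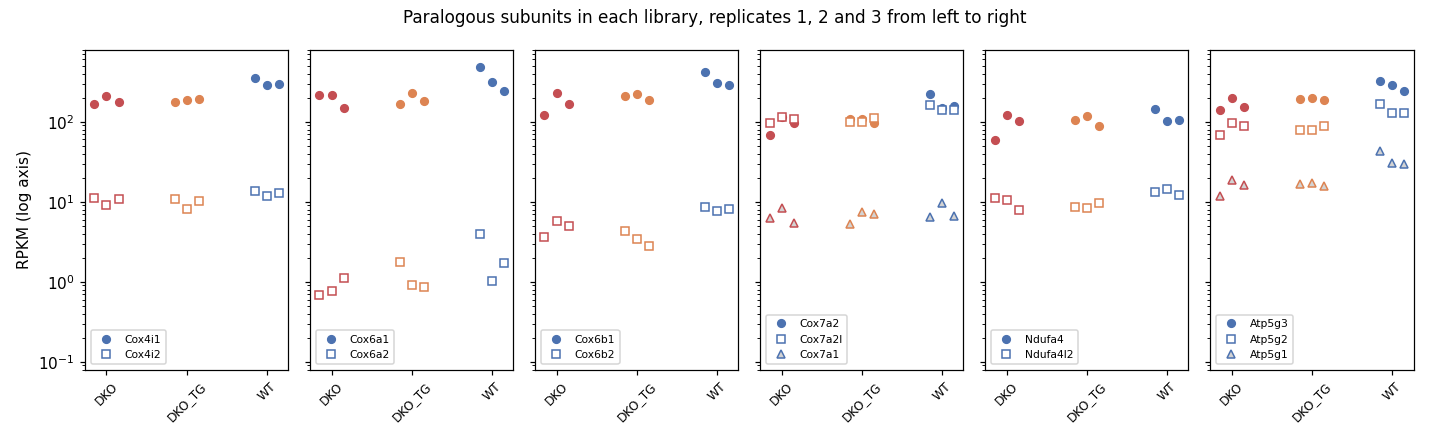
RPKM on a log axis of paralogous subunits in DKO, DKO_TG and WT, with 1 point per library and a marker for each gene. In each panel the same gene is the most abundant in all libraries except for Cox7a2 and Cox7a2l, which lie close together.

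Among rows too low to test, Cox8b (a muscle form) was at 0.0452 to 0.163 RPKM in DKO, 0.0558 to 0.134 RPKM in DKO_TG and 0.0606 to 0.124 RPKM in WT. Cox7b2 and Cox8c, known from testis, had 0.0756 and 0.195 RPKM at most, and the second Atp5o row was listed at 0 in all libraries. Cox6c2, one of the annotated pseudogenes, had the highest mean of all members (118, 361 and 293 RPKM in DKO, 329, 354 and 278 RPKM in DKO_TG, and 410, 330 and 341 RPKM in WT). Its 231 exon bases copy Cox6c, so reads of either gene may be counted in the other, and the same holds for Ndufa11b, Ndufb4c and Ndufs6b and their parents. Cox6c itself was listed at 30.5 to 56.1 RPKM in DKO, 45.6 to 56.4 RPKM in DKO_TG and 53.1 to 63.8 RPKM in WT over 3567 annotated bases, which lowers its RPKM if most transcripts are shorter. Without the 4 pseudogenes, 64 of 82 tested rows were lower in DKO and 47 in DKO_TG. Of the 8 "-ps" rows kept out by the rule, 3 were lower in DKO and none in DKO_TG at an adjusted p under 0.05, against 25.9% and 22.3% of all genes.

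Complex V turns in the membrane on a ring of c subunits and makes ATP in its F1 head. In DKO 14 of 17 tested rows were lower and 1 higher, and in DKO_TG 10 were lower and the same one higher. The 5 F1 subunits Atp5a1, Atp5b, Atp5c1, Atp5d and Atp5e were lower in both. Atp5b, the catalytic beta subunit (chr10:128083273-128090391), was at 174, 204 and 181 RPKM in DKO and 203, 217 and 215 RPKM in DKO_TG, against 392, 318 and 315 RPKM in WT. That is 54.8% of the WT level in DKO (-0.87 ± 0.13, adjusted p = 6.0e-04) and 62.3% in DKO_TG (-0.68 ± 0.13, adjusted p = 0.0022), with no overlap. Atp5a1, the alpha subunit, was at 208, 241 and 228 RPKM in DKO and 236, 248 and 244 RPKM in DKO_TG, against 467, 372 and 394 RPKM in WT. Atp5c1, the gamma subunit of the turning stalk, fell by 0.62 ± 0.13 in DKO and 0.54 ± 0.13 in DKO_TG, and lay at or slightly above 0 in both under quantile normalization. Atp5d, the delta subunit, fell by 1.04 ± 0.22 in DKO and 1.13 ± 0.22 in DKO_TG.

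The c ring comes from 3 genes that encode the same mature protein. Atp5g1 was at 11.9, 18.6 and 16.2 RPKM in DKO and 16.6, 17.4 and 15.6 RPKM in DKO_TG, against 43.3, 30.1 and 29.4 RPKM in WT. Its log2 fold changes were -1.11 ± 0.19 in DKO (adjusted p = 0.0013) and -1.01 ± 0.19 in DKO_TG (adjusted p = 0.0022). Atp5g2 fell by 0.75 ± 0.15 in DKO and 0.77 ± 0.15 in DKO_TG, and Atp5g3, the most abundant, by 0.80 ± 0.16 in DKO and 0.56 ± 0.16 in DKO_TG, the second of which turned above 0 under quantile normalization. Atp5g1 made up 5.88% ± 0.45 of the c subunit RNA in DKO, 5.69% ± 0.26 in DKO_TG and 7.41% ± 0.67 in WT, and its share in each knockout library lay below that in each WT library.

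Among the stalk and membrane subunits, Atp5o and Atp5h, of the outer stalk, fell by 1.10 ± 0.20 and 1.00 ± 0.18 in DKO and by 0.86 ± 0.20 and 0.85 ± 0.18 in DKO_TG. Atp5k, the e subunit that helps ATP synthase form dimers, was at 19.5, 76.1 and 64.1 RPKM in DKO and 87.7, 93.2 and 64.6 RPKM in DKO_TG, against 139, 97.1 and 97.0 RPKM in WT. DKO replicate 1 lay far below the other libraries of its group, and the SE of the change in DKO was accordingly wide (-1.25 ± 0.45, adjusted p = 0.040). Atp5f1, Atp5j and Atp5j2 were called lower in DKO and not in DKO_TG, with Atp5f1 above 0 in DKO under TPM and quantile scaling and Atp5j under TPM, and Atp5l and Atp5mpl in neither. Atp5s, the coupling factor B gene, which newer annotation names Dmac2l, was placed with these subunits by its symbol alone. This gene was the one member called higher in DKO (chr12:69724950-69744660). It was at 7.19, 6.67 and 5.36 RPKM in DKO and 5.18, 6.55 and 6.09 RPKM in DKO_TG, against 3.59, 3.30 and 3.57 RPKM in WT. All 6 knockout libraries lay above WT, with log2 fold changes of 0.78 ± 0.12 in DKO (adjusted p = 8.6e-04) and 0.69 ± 0.12 in DKO_TG (adjusted p = 0.0018).

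The transgene-labelled ovaries were set against the plain double knockout. As given above, Nr1h2 RNA did not lie higher in DKO_TG than in DKO, so that row does not show expression of the transgene. Whether RNA of the transgene would be counted in that row is not stated in the labels. No member was called in this comparison by limma, where 1.73% of all genes were called lower and 0.498% higher. At an unadjusted p under 0.05, 1 member was higher (Ndufs1) and 0 were lower, where 6.87% of all genes were higher and 8.95% lower, and limma-voom on the recovered reads also called 0. The median log2 fold change of the members was 0.16, against 0.03 for all genes, and 18 of the 86 were below 0. Ndufs1 had the smallest adjusted p, 0.087, at 0.27 ± 0.07, and the largest change was that of Atp5k (0.81 ± 0.45, adjusted p = 0.43), both named after their values were seen. The 3 DKO_TG libraries lay above the 3 DKO libraries for Ndufs1, Ndufb2, Sdha, Uqcrc2 and Cox7c, and for no row below, while 12.1% of all genes were higher and 12.1% lower in this way. The data leave room for differences in either direction: the 95% interval of the log2 fold change was -0.28 to 0.32 for Cox4i1, -0.10 to 0.47 for Atp5b, -0.04 to 0.61 for Sdhb and -0.20 to 0.94 for Ndufa12. The median depended on 1 library, being 0.03 without DKO replicate 1. This comparison shares its libraries with both others, so the smaller count of calls against WT in DKO_TG is no test of a difference from DKO.

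The order of the members by level changed little. Between any pair of libraries the rank correlation of the 86 levels, which share annotated lengths and the libraries' scale, was 0.920 to 0.995. The 86 members had a median of 58.8 RPKM over all libraries, and all tested genes 5.05 RPKM. Over all 18889 genes the change in DKO went with the level (rank correlation -0.46), as it did in DKO_TG (-0.44), while among the members it did not (-0.06 and 0.04 over 86 rows). The members' exons were short, with a median of 1522.5 bases against 3042 for all tested genes, and over the members the rank correlation of the change with length was 0.16 in DKO and 0.03 in DKO_TG. With GC content it was -0.30 in DKO and -0.52 in DKO_TG. In DKO replicate 1, the lowest library, short members were lowest: set against the mean of DKO replicates 2 and 3, its median difference was -0.52 for the 43 shorter members and -0.22 for the 43 longer ones (rank correlation with length 0.40). A part of level, length or GC content in the comparisons was described only by these values and by the corrected fits.

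The size of the difference from WT depended on the scale. In a rescaling to TPM, where each library's RPKM are divided by their sum, the median log2 fold change of all genes moved to 0.48 in DKO and 0.47 in DKO_TG, and that of the members was -0.19 in DKO and -0.053 in DKO_TG. In DKO 26 members were then called lower and 5 higher, and in DKO_TG 21 lower and 10 higher. Relative to the median of all genes the members stood at -0.67 in DKO and -0.52 in DKO_TG, where on the deposited scale these were -0.75 in DKO and -0.61 in DKO_TG. Scaling to the plain total of reads gave 40 lower calls in DKO and 34 in DKO_TG. Quantile normalization gave 31 in DKO and 24 in DKO_TG, with the members 0.15 and 0.06 below all genes in these 2 comparisons. Of all 18889 genes, 4726 were then called lower in DKO and 4504 in DKO_TG, in DKO_TG a share close to that of the members. Of the 86 members, 62 in DKO and 50 in DKO_TG lay below the median of all genes. TMM rescaling gave 76 lower calls in DKO and 61 in DKO_TG, where 6077 and 5661 of all 18889 genes were called lower, also more than on the deposited scale. Of the 66 members called lower in DKO on the deposited scale, 9 had a fold change above 0 under TPM, 8 under quantile normalization and 1 (Sdha) under the plain total, and of the 48 called lower in DKO_TG 5 did under TPM (Cox4i2, Cox7a2l, Ndufc2, Ndufs4 and Sdhd) and 5 under quantile normalization (Atp5c1, Atp5g3, Cox7a2l, Ndufc2 and Sdhd). Over the scalings the lower calls in DKO ran from 14 to 36 in complex I, 2 to 4 in II, 1 to 9 in III, 3 to 12 in IV and 4 to 15 in V. In DKO_TG they ran from 11 to 30 in complex I, 1 to 4 in II, 1 to 5 in III, 2 to 10 in IV and 5 to 12 in V. The median of each complex stayed below 0 in DKO in all of these. In DKO_TG that of complex II reached 0.01 and that of complex III 0.11 under TPM, and that of complex III 0.13 under quantile normalization. Set against the median of all genes under quantile normalization, complexes I to V stood at -0.31, -0.12, 0.00058, -0.10 and -0.12 in DKO. In DKO_TG they stood at -0.23, 0.02, 0.19, -0.06 and 0.04, so that not every complex lay below all genes there. A total of 20 members were called lower in DKO on the deposited scale and in all 25 alternatives. Among them were Ndufa10, Ndufa12, Ndufs8, Sdhb, Sdhc, Uqcrq, Cox7a2, Atp5d, Atp5g1 and Atp5o. The share of all genes that held in this way was not counted, so the 20 have no background to be set against.

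**Figure D5:**
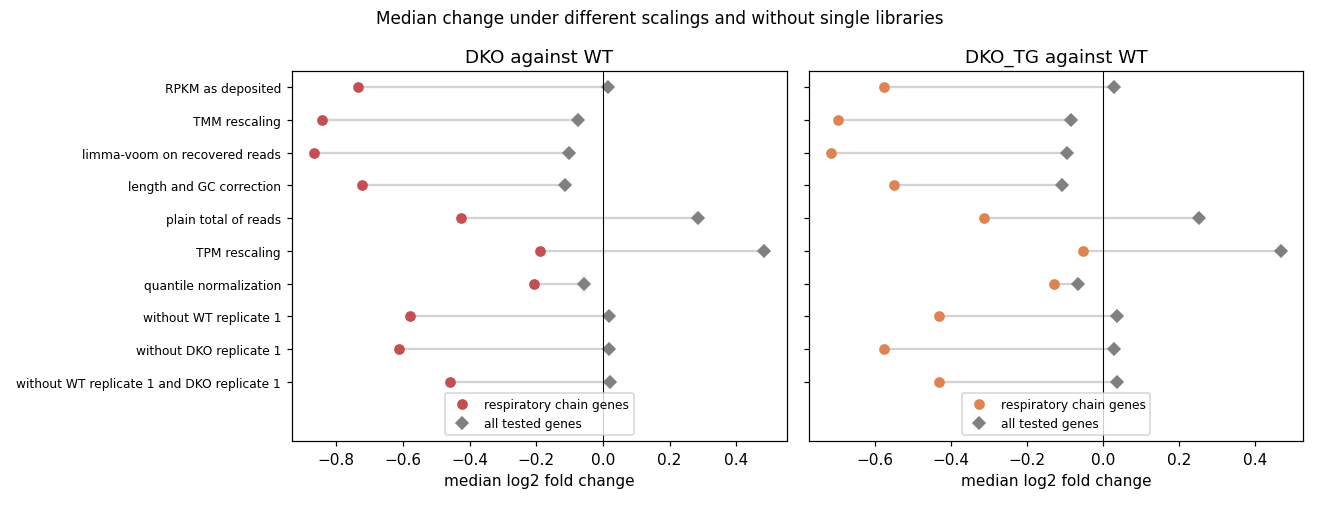
Median log2 fold change of the 86 respiratory chain genes (circles) and of all tested genes (diamonds) against WT, in DKO (left) and DKO_TG (right), on the deposited scale, under other scalings and without WT replicate 1, DKO replicate 1 or both. The circles lie left of the diamonds and of 0 in each setting drawn, from -0.87 to -0.19 in DKO, and come closest to the diamonds under quantile normalization.

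Other genes of the pathway were counted in lists, on the deposited scale. Under TPM rescaling some of their medians in DKO turned above 0, though below the 0.48 of all genes. These were the medians of the assembly factors (0.25), carriers (0.42), tricarboxylic acid cycle with pyruvate dehydrogenase (0.17) and mitochondrial ribosome (0.06). With TPM 19 assembly factors were higher and 5 lower in DKO and 23 higher and 1 lower in DKO_TG, and 11 carrier genes were higher and 1 lower in DKO and 11 higher and 0 lower in DKO_TG. Over all 18889 genes, TPM gave 10027 higher and 1065 lower calls in DKO and 9739 higher and 994 lower in DKO_TG. The 13 subunits encoded by mitochondrial DNA were listed at 0 in all libraries, as were all 37 rows named mt-, so they could not be set beside the nuclear ones. Of 48 tested assembly factors, 18 were lower and 6 higher in DKO (median -0.25), and 12 were lower and 8 higher in DKO_TG. Cox10, which makes the haem of complex IV, fell by 0.83 in DKO (adjusted p = 3.3e-04), Coa3, an assembly factor of complex IV, fell by 0.85, and the copper chaperone Cox17 rose by 0.57 (adjusted p = 0.0013). Of 17 genes for the mobile carriers and their feeders, 6 were lower and 2 higher in DKO and 2 lower and 2 higher in DKO_TG. Cycs, cytochrome c, was at 23.4, 34.6 and 32.7 RPKM in DKO and 42.2, 46.0 and 42.4 RPKM in DKO_TG, against 68.9, 50.5 and 55.6 RPKM in WT. It was called in DKO (-0.94 ± 0.16) and not in DKO_TG (-0.41 ± 0.16, adjusted p = 0.066), and the groups did not overlap. Coq2, of ubiquinone synthesis, rose by 0.67 in both.

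Of 17 genes of the tricarboxylic acid cycle and of pyruvate dehydrogenase (Pdha1, Pdhb and Dlat), 13 were lower in DKO and 7 in DKO_TG, and none higher. Under TPM 5 were lower and 4 higher in DKO, and 3 lower and 7 higher in DKO_TG (median 0.30). Ogdh, of the oxoglutarate dehydrogenase step, fell by 1.37 ± 0.11 in DKO (adjusted p = 2.1e-05) and Cs (citrate synthase) by 0.90. A list of 16 genes of the mitochondrial membranes, import and matrix includes Vdac1 (-0.61 in DKO) and Tomm20 (-0.30 in DKO, and 0.24 under TPM). Of these 16, 12 were lower in DKO and 8 in DKO_TG, with 1 higher in DKO_TG. This balance also turned with the scale: under TPM 5 were lower and 4 higher in DKO, and 0 lower and 6 higher in DKO_TG (median 0.22), and under quantile normalization 3 were lower and 4 higher in DKO_TG (median 0.07). Of the 77 tested mitochondrial ribosomal protein genes, 53 were lower and 1 higher in DKO, but 5 lower and 17 higher under TPM. Their median in DKO under TPM still lay 0.42 below that of all genes. The TPM counts of these lists stand beside 10027 of 18889 genes higher and 1065 lower in DKO, and 9739 and 994 in DKO_TG. Regulators of mitochondrial gene expression differed in direction, with a median above 0 under each scaling tried: of 16 tested, 8 were higher and none lower in DKO, and likewise in DKO_TG, against 30.8% and 29.1% of all genes called higher in these comparisons. In DKO 14 were higher under TPM and under the plain total, where 10027 and 8241 of all genes were. Under the length and GC correction 6 regulators were higher and 2 lower in DKO. They include Mterf1a (1.19), Mterf3 (1.05) and Esrra (0.91), while Nrf1 (0.09, adjusted p = 0.41) and Tfam (0.09, adjusted p = 0.37) were not called on the deposited scale. Both fell on either side of 0 over the scalings. By limma both were called higher in DKO under TPM (Nrf1 0.54, adjusted p = 0.012, and Tfam 0.61, adjusted p = 0.0037) and under the plain total. Under quantile normalization Nrf1 was called lower (-0.23, adjusted p = 0.047). Ppargc1a lay at 0.0792 to 0.234 RPKM and was not tested. Outside mitochondria, 62 of 89 tested cytosolic ribosomal protein genes were lower in DKO, with a median of -0.72, and 59 in DKO_TG. Without WT replicate 1 and DKO replicate 1, 27 mitochondrial and 50 cytosolic ribosomal protein genes were lower in DKO, where 3794 of 18889 genes were. The cytosolic median was -0.17 under TPM and -0.04 under quantile normalization in DKO.

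Some markers of cell types were called as well, and their part in the results was not tested. Of all genes, 25.9% were called lower and 30.8% higher in DKO, and 22.3% lower and 29.1% higher in DKO_TG, each against WT. In DKO_TG against DKO 1.73% were called lower. In lists this short, a count not far above these shares shows little. Of 8 luteal markers, 3 (Star, Cyp11a1 and Prlr) were lower in DKO and none in DKO_TG, and their summed level was 5439 to 7343 RPKM in DKO, 6827 to 8278 RPKM in DKO_TG and 7860 to 10347 RPKM in WT. Of 8 granulosa markers, 1 was lower in DKO and 2 in DKO_TG, where 25.9% and 22.3% of all genes were called lower in these comparisons, with sums of 1136 to 2306 RPKM in DKO, 1670 to 2046 RPKM in DKO_TG and 1807 to 2513 RPKM in WT. Macrophage markers were higher in DKO than in WT for 7 of 8, with sums of 155 to 306 RPKM in DKO, 77.2 to 81.1 RPKM in DKO_TG and 105 to 139 RPKM in WT, and lower in DKO_TG than in DKO for 6 of 8. Oocyte markers were higher in DKO for 5 of 8 and in DKO_TG for 6 of 8, and endothelial markers lower in DKO for 5 of 6 and in DKO_TG for 4 of 6. Of 6 theca markers, 4 were higher and 1 lower in DKO and 1 higher and 1 lower in DKO_TG, with sums of 174 to 285 RPKM in DKO, 672 to 1033 RPKM in DKO_TG and 289 to 1059 RPKM in WT. Of 5 tested erythrocyte markers, 3 were lower in DKO_TG than in WT (median -1.79) and none in DKO, with sums of 562 to 2411 RPKM in DKO, 198 to 285 RPKM in DKO_TG and 361 to 1657 RPKM in WT. Against DKO, the erythrocyte markers had a median of -2.38 in DKO_TG and 0 were called. Of 6 smooth muscle markers, 2 were lower in each knockout group, and of 3 tested adipocyte markers 2 were lower in DKO and 1 in DKO_TG. Striated muscle markers, whose cells use the muscle forms of complex IV, stayed under 1 RPKM in sum in each library. No marker in these lists was at 0 in all libraries.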

How the data were processed

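Total RNA of mouse ovary was sequenced in 9 libraries, 3 each of DKO, DKO_TG and WT, grouped by the sample labels. The authors deposited 1 table of RPKM values per gene and library. Per the submitters' processing notes, cutadapt, HISAT2 2.1.0, HTSeq 0.5.4p5, DESeq2 1.2.8 and build mm10 were used. How the RPKM were made, with which annotation and strand setting, is not given in the sources used here. The column names of DKO_TG differ in spelling from the titles, and group and number matched them.

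Row identifiers were matched to GENCODE M21 (54809 rows) for exon length, GC content and class. Multiplying deposited RPKM by exon length gave whole reads for 97.8% of values above 0, within 0.01 read or a relative 1e-06. RPKM values were put on the scale log2(RPKM + 0.5), which understates changes of low genes, and tested in limma 3.58.1 (R 4.3.3) with all 9 libraries in 1 fit, for genes of at least 0.5 RPKM in at least 3 libraries, with Benjamini-Hochberg adjustment. The procedure was tested on simulated data. The members and gene lists were chosen with earlier results of these data known. The genes named are the core subunits, paralog groups, per complex the genes with the smallest adjusted p in each direction and the highest and lowest level, and up to 3 genes of each other list. Many further ones, outside these rules, were named after their values were seen. Among them are Ndufa3, Ndufa6, Ndufa13, Ndufb10, Ndufc1, Uqcrq, Cox7c, Atp5d, Atp5h, Atp5k and Atp5o, and some of these have large falls. Some genes stay in the counts and are not reported singly here. The cytosolic ribosome list leaves out 10 Rps6k kinase rows, also after values were seen. Alternatives covered scaling, filter, pseudocount, replicate block, weights, length and GC correction, and leaving out libraries.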

Additional observations from a re-analysis of the deposited data

How the results depend on the processing

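The fall of the members' median against WT held in all alternatives, and the counts of calls over all members and over all genes held within 1.5 times except where given here. The calls by complex and by list moved further with the scale, as given in the results above. The cause of the changes was not tested. Rescaling to TPM gave 26 members lower and 5 higher in DKO (median -0.19; all genes 1065 lower, 10027 higher) and 21 lower and 10 higher in DKO_TG (median -0.053; all genes 994 and 9739). Quantile normalization gave 31 lower and 2 higher in DKO (median -0.21; all genes 4726 lower, 4154 higher) and 24 lower and 4 higher in DKO_TG (median -0.13; all genes 4504 and 3777). The plain total of reads gave 40 lower and 2 higher in DKO (median -0.42; 2314 genes lower), and a median of -0.31 and 2238 genes lower in DKO_TG. TMM, limma-voom and the length and GC correction each left 1 member higher in DKO_TG. With protein-coding genes only, fewer genes were tested and 3037 were lower in DKO and 2686 in DKO_TG.

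Single members changed sign in DKO against WT. Under TPM they included Atp5f1, Atp5j, Ndufs4, Cox4i2 (0.25), Cox7a1 (0.35), Cox7a2l (0.078), Cox7b (0.19), Ndufa4 (0.18), Ndufa4l2 (0.090), Ndufb2 (0.33), Ndufs3 (0.062), Ndufs7 (0.030), Sdha (0.30), Sdhd (0.037) and Uqcrfs1 (0.22). Under quantile normalization they included Atp5f1, Ndufc2, Atp5c1 (0.000691), Cox6c2 (0.037), Cox7a2l (0.16), Cox7b (0.19), Cox8a (0.025), Ndufa4 (0.23), Sdha (0.33), Sdhd (0.064), Uqcrfs1 (0.22) and Uqcrh (0.070). Under the plain total they included Cox4i2 (0.023), Cox7a1 (0.13), Ndufb2 (0.12) and Sdha (0.066). Ndufs1, not called in DKO on the deposited scale, had -0.087 under TMM, -0.10 under limma-voom and -0.29 (adjusted p = 0.0067 by limma) under the length and GC correction, which also gave Ndufs1 -0.10 in DKO_TG and Cox7a1 0.14 in DKO.

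Leaving out 1 library at a time gave 50 to 73 members lower in DKO (median -0.88 to -0.58) and 34 to 55 in DKO_TG (median -0.69 to -0.43). Over these fits 3924 to 5216 of all genes were lower in DKO and 3044 to 4569 in DKO_TG. Of the 66 and 48 members called lower on the deposited scale in DKO and DKO_TG, 48 and 33 held in all 9 such fits. The share of all genes that held was not counted. Without 1 library, Cox7a1 ranged over -0.33 to 0.011 and Ndufs1 over -0.00166 to 0.034, each past 0 only without WT replicate 2, while Cox7b and Ndufa4 reached -0.56 and -0.59 without DKO replicate 2. Without WT replicate 1 and DKO replicate 1, the median was -0.46 in DKO, Cox7b was at 0.12 and Ndufa4 at 0.10. Between DKO_TG and DKO no alternative called a member, while the calls over all genes (94 higher, 327 lower) ranged over 10 to 111 higher and 23 to 391 lower without 1 library, with fewest without a DKO_TG library. They were 162 lower with no filter, 24 higher and 44 lower in a fit of the 6 libraries, and 150 higher and 411 lower without WT replicate 1 and DKO replicate 1. Same-numbered libraries showed no common deviation (correlations -0.31 to 0.14), where those of unlike number ran from -0.26 to 0.32. With 3 libraries a group, this cannot exclude that the numbers pair them. With a replicate block 58 members were lower in DKO and 42 in DKO_TG, and 21 genes were higher and 78 lower in DKO_TG against DKO. A quasi-likelihood test on recovered reads was planned and not run, since the deposited unit is RPKM.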
